A study of Mus musculus with 6 samples.

Results

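The genes described here are the enzymes and regulators of cholesterol and fatty acid synthesis in embryonic mouse hearts. Controls were compared with hearts in which the genes of the RNA-binding proteins RBPMS and RBPMS2 were targeted for deletion in heart muscle cells. The members were 33 named genes, chosen by their known function, with earlier results of these data known. All 33 were found in the table of 45706 genes, and all had a mean of at least 10 over the 6 hearts, so none was lost to that minimum. The lowest of them, Scd1, had a mean of 145. Of all genes, 15556 reached the minimum and were tested.

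RNA of 6 whole hearts from C57BL6/J embryos was sequenced from poly(A)-selected, stranded libraries. The 3 controls were littermates with floxed alleles of both genes and no Cre (RBPMS flox/flox RBPMS2 flox/flox). The 3 knockouts carried the same floxed alleles and aMyHC Cre, a recombinase transgene under a promoter (alpha-myosin heavy chain) of heart muscle cells. All 6 hearts thus shared the floxed alleles, no control carried Cre, and effects of the transgene and of the deletion cannot be told apart. The labels state neither the embryonic day nor any pooling of hearts. The deposited values are reads per gene scaled per heart and rounded, and the depth before scaling was estimated at 12961438 to 25838007 reads. Rbpms fell to 17.3% of the control level on the log scale (log2 fold change -2.53, SE 0.22; limma, adjusted p = 0.000325) and Rbpms2 to 55.7% (-0.84, SE 0.12; limma, adjusted p = 0.00207), so the targeted genes went with the labels. Of 10 cardiomyocyte markers none was at 0, and their summed value was 844292 to 900345 in controls and 774267 to 839229 in knockouts, with 1 of the 10, Actn2, lower.

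Cholesterol is built from acetyl-CoA. The mevalonate arm makes isoprenoid units, and the sterol arm joins them into squalene, closes the rings and trims the product to cholesterol. Fatty acid synthesis starts from the same acetyl-CoA, and desaturases and elongases then shape the chains. Both pathways are controlled by the transcription factors SREBP1 and SREBP2, encoded by Srebf1 and Srebf2. These are made as membrane proteins of the endoplasmic reticulum. SCAP escorts them to the Golgi for cleavage when sterol is scarce, and INSIG1 and INSIG2 hold SCAP back when sterol is plentiful. SREBP2 is known mainly for sterol genes and SREBP1 for fatty acid genes, and Insig1 and Srebf2 are themselves known SREBP targets.

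SREBPs bind sterol regulatory elements and act with NF-Y, which binds CCAAT boxes, and Sp1, which binds GC boxes. Stretches of promoter are shown as examples for 4 genes that fell (Hmgcs1, Nsdhl, Insig1 and Srebf2). Stretches of 2 that did not pass the test (Fasn and Insig2) are shown with them. Promoter windows were taken from RefSeq (build GRCm38.p6), 250 bases before to 50 after each start, and were at hand for 27 of the 33 genes. Windows for Fdps, Fdft1, Sqle, Scd1, Scd2 and Fads1 were not used here. The stretches below all lie before the RefSeq start and read 5′ to 3′ on the strand of the gene. Capitals mark every match to the letters searched that lies within the stretch. Each stretch is only part of a window, so the genes cannot be compared by the sites shown. The windows hold further sites outside the stretches. Among them are a CCAAT box of Insig1 at -216 from the start and GC boxes of Srebf2 at -79 and -52. Hmgcs1 and Nsdhl also have further CCAAT boxes there. Other windows of Insig2 hold GC boxes.
Hmgcs1 (chr13:119690206-119690335, plus strand): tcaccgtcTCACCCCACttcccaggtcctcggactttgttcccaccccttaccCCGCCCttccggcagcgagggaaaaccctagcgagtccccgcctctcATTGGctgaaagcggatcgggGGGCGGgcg
Nsdhl (chrX:72918406-72918505, plus strand): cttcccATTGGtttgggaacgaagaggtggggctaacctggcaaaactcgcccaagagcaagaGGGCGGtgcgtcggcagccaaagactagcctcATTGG
Insig1 (chr5:28071237-28071321, plus strand): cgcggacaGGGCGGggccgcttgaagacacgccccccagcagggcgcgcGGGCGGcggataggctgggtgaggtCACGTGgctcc
Srebf2 (chr15:82147054-82147179, plus strand): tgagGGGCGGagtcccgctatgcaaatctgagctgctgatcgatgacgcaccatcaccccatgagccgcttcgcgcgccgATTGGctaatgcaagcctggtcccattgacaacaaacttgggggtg
Fasn (chr11:120824598-120824642, minus strand): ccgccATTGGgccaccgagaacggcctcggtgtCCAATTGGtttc
Insig2 (chr1:121332610-121332729, minus strand): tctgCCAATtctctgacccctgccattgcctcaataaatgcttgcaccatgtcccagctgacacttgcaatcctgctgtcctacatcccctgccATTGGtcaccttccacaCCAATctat

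The letters searched, on both strands, were TCACNCCAC for a sterol regulatory element, CCAAT for NF-Y, GGGCGG for a GC box and CACGTG for an E-box. Sites of different motifs did not overlap in the windows of these genes. The CCAAT box was in the windows of 22 of the 27 genes (81.5%), against 41.1% of all 27025 genes with a window and 42.3% of the tested genes with one. Among the 11 genes with a window that fell 8 held it, and among the 16 that did not pass the test 14 did. The GC box was in 21 of 27 (77.8%), against 67.4% of tested genes, and the E-box in 6 of 27 (22.2%), against 11.4%. The TCACNCCAC letters were found in 1 of the 27, Hmgcs1, with its first base 137 bases before the start, against 1.4% of all genes with a window. Only these exact letters were searched. A sterol regulatory element with other letters was not counted, so a gene without a match is not shown to lack one. A match describes letters in this window only, and genes with several start sites were counted once if any of their windows matched.

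In the knockout hearts 14 of the 33 genes fell and 0 rose (limma on log2(value + 1), Benjamini-Hochberg adjusted p below 0.05 over all genes tested). Over all tested genes 8.56% were called lower and 8.61% higher. At an unadjusted p below 0.05, 18 of the 33 were lower and 1 was higher. The share of all tested genes at an unadjusted p was not computed. Unadjusted counts, here and below, are thus not to be set against 8.56% or 8.61%, which are shares of adjusted calls. Limma-voom on estimated reads called 13 of the 33 lower and 0 higher, against 8.2% of all tested genes lower and 1226 of 15556 higher. Of the 33 genes 28 had a log2 fold change below 0, against 49.7% of all tested genes. The median log2 fold change was -0.26 over the 33 genes and 0.00 over all tested genes. Every knockout heart lay below every control heart in 19 of the 33 genes, against 17.9% of all tested genes, and above every control in 1, against 17.5%. The falls were moderate, from -0.26 to -0.74 on the log2 scale. Leaving out each heart in turn left 11 to 16 genes called lower. The calls over all genes dropped to 614 higher and 691 lower without knockout replicate 2, to 880 and 789 without control replicate 3, and to 876 and 954 without knockout replicate 3. In whole hearts, fewer cells of a type and less RNA per cell cannot be told apart.

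**Figure D1:**
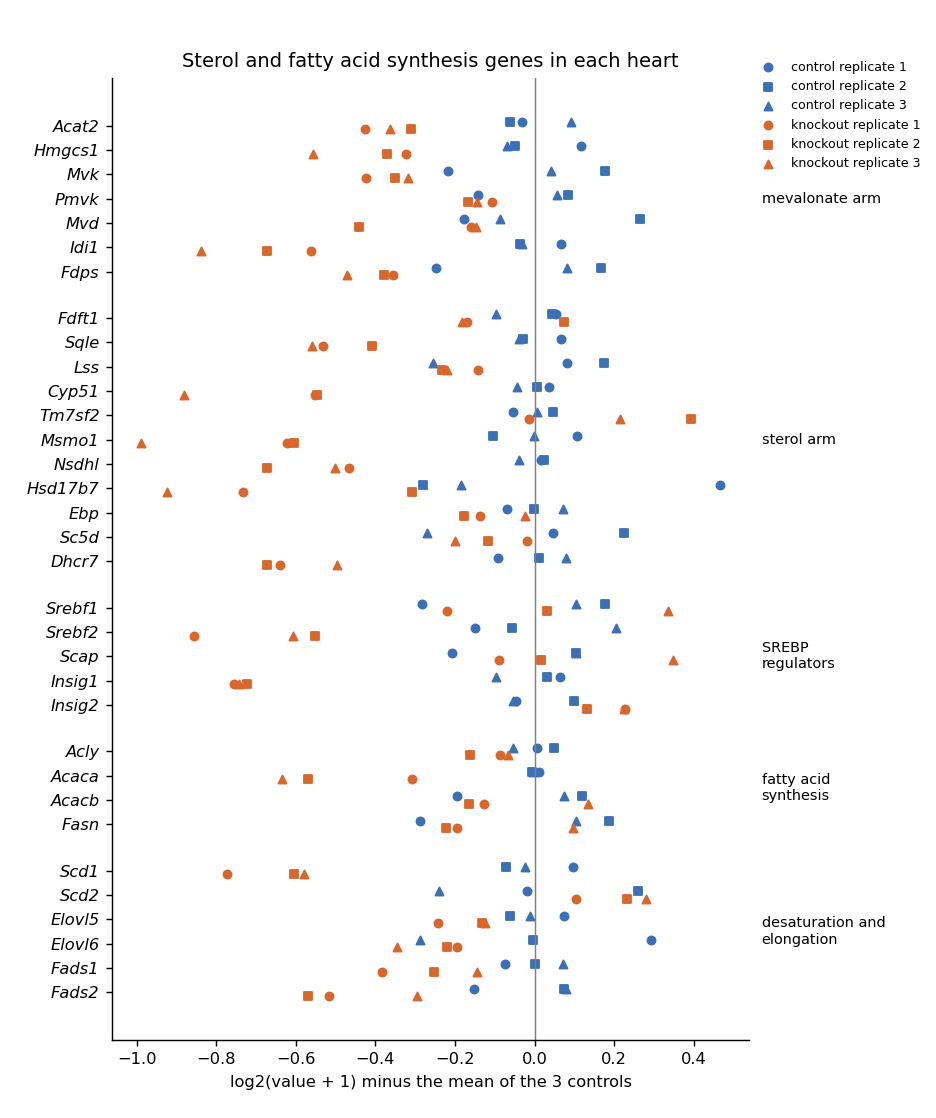
Each point is 1 heart's log2(value + 1) minus the mean of the 3 controls, for the 33 genes in rows ordered by role; blue marks controls, orange knockouts, and circle, square and triangle mark replicates 1, 2 and 3. All 3 knockouts lie left of all 3 controls in 19 genes and right of them in 1, Insig2.

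The regulators split by gene. Srebf2 (chromosome 15, 82147181 to 82205379, plus strand; mm10 coordinates from GENCODE M21 here and below) had values of 2484, 2652 and 3180 in the controls and of 1523, 1879 and 1809 in the knockouts (replicates 1, 2 and 3 in that order, here and below). The highest knockout stood well below the lowest control. The fall, to 62.8% of the control level, passed the test (limma, adjusted p = 0.0028; log2 fold change -0.67, SE 0.11). Srebf1 (chromosome 11, 60199089 to 60222581, minus strand), which encodes SREBP1, was at 1398, 1924 and 1828 in controls and 1461, 1737 and 2147 in knockouts. The groups overlapped, and the log2 fold change of 0.05 had an interval from -0.28 to 0.38 (95%, n = 3 each). Its sign turned to -0.09 without control replicate 1 or without knockout replicate 3. Srebf1 shares exon sequence on the opposite strand with Rai1.

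Insig1 (chromosome 5, 28071363 to 28078662, plus strand), the INSIG gene that sterol depletion is known to induce, had the smallest adjusted p of all 33. It was at 804, 785 and 719 in controls and at 455, 465 and 459 in knockouts, or 769 ± 44.6 and 460 ± 5.03 on average (SD, n = 3 per group). The 3 knockouts were nearly identical. By limma the adjusted p was 0.000616 and the log2 fold change -0.74 (SE 0.08). Insig2 (chromosome 1, 121304353 to 121332589, minus strand), the second INSIG gene, was at 954, 1056 and 950 in controls and 1154, 1080 and 1153 in knockouts. It was the single gene of the 33 with every knockout above every control, but it did not pass (limma, adjusted p = 0.0952; log2 fold change 0.20, SE 0.07). Scap was at 610, 757 and 757 in controls and 662, 713 and 897 in knockouts, and did not pass (log2 fold change 0.09, SE 0.13). Without control replicate 1 the Scap value was -0.01, and without knockout replicate 3 it was -0.04.

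**Figure D2:**
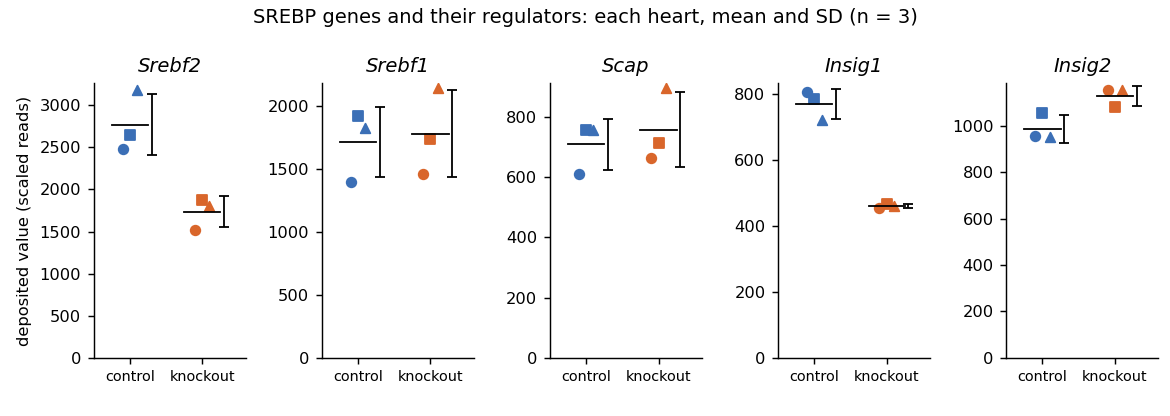
Deposited values (scaled reads, vertical axes from 0) of the SREBP genes and their regulators in each heart, with the mean as a line and the SD as a bar beside it (n = 3); circle, square and triangle are replicates 1, 2 and 3. Srebf2 and Insig1 separate into a high control and a low knockout group, whereas the groups of Srebf1 and Scap overlap.

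In the mevalonate arm 3 of 7 genes fell and 0 rose, with a median log2 fold change of -0.37. At an unadjusted p below 0.05, 5 were lower and 0 higher, and limma-voom called 3 and 0. Hmgcs1, the synthase that makes HMG-CoA, was the most abundant of the arm per length. It was at 3635, 3243 and 3194 in controls and at 2678, 2592 and 2280 in knockouts. Every knockout was below every control, and it fell by 0.42 (SE 0.08; limma, adjusted p = 0.00723). Idi1, the isomerase that makes the reactive isoprenoid unit, fell furthest in this arm, from 291, 271 and 272 to 188, 174 and 155, or by 0.69 on the log2 scale (limma, adjusted p = 0.0031; SE 0.11). Acat2, the cytosolic thiolase that opens the pathway, went from 300, 294 and 327 to 228, 247 and 238 and fell by 0.37 (SE 0.10; limma, adjusted p = 0.0283).

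The call for Acat2 was lost without control replicate 2 (adjusted p = 0.0567) or 3 (0.0955), without any 1 knockout (0.0683 to 0.0752), and with embryo sex as a term (0.065). Its transcript is 97.7% identical over 1477 bases to its neighbour Acat3, which had a mean of 13.7. Idi1 likewise shares 684 identical bases with the pseudogene Gm13502, at a mean of 14.5. Values of both are uncertain to the extent that reads were shared.

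The remaining 4 genes of the arm were all at negative fold changes that did not pass. Fdps, which makes farnesyl diphosphate, was at 139, 186 and 175 in controls and 129, 127 and 119 in knockouts (log2 fold change -0.40, SE 0.14; limma, adjusted p = 0.0756). The knockouts lay below all controls, and without control replicate 1, the lowest of them, it passed (adjusted p = 0.0296). Near-identical Fdps pseudogenes are annotated, such as Gm3571 with 98.9% identity over 1062 bases, so its values are uncertain. Mvk, mevalonate kinase, was at -0.36 on the log2 scale (limma, adjusted p = 0.0583; SE 0.12), and passed without control replicate 1 (adjusted p = 0.0205). Pmvk, the next kinase, was at 542, 634 and 622 against 555, 532 and 541, with a change of -0.14 and an interval from -0.33 to 0.05. For Mvd, the decarboxylase, the value was -0.25, with an interval from -0.55 to 0.05. Without control replicate 2 it was -0.12, and without knockout replicate 2 it was -0.15. With embryo sex as a term Mvd passed (adjusted p = 0.0464).

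In the sterol arm 5 of 11 genes fell and 0 rose, with a median of -0.50. At an unadjusted p below 0.05, 6 were lower and 0 higher, and limma-voom called 5 and 0. Msmo1, the C4-methylsterol oxidase, had the largest fall of the arm. It was at 937, 809 and 869 in controls and at 565, 572 and 438 in knockouts, or 872 ± 64.0 and 525 ± 75.4 on average (SD, n = 3 per group). By limma the adjusted p was 0.00233 and the log2 fold change -0.74 (SE 0.11). Cyp51, lanosterol demethylase, acts earlier in the arm. It went from 1003, 982 and 949 to 666, 669 and 530 (log2 fold change -0.66, SE 0.10; limma, adjusted p = 0.00217). For both genes knockout replicate 3 was the lowest heart, and the other 2 knockouts were nearly equal. Cyp51 shares exon sequence on the opposite strand with Akap9, and the sources used here do not state whether counting used strand.

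Sqle, squalene epoxidase, a rate-limiting enzyme of the arm, was at 999, 935 and 929 in controls and 660, 718 and 647 in knockouts. It fell by 0.50 (SE 0.08; limma, adjusted p = 0.0023). Dhcr7, the reductase of the last step of one branch, went from 491, 527 and 553 to 335, 328 and 370, a fall by 0.60 (SE 0.09; limma, adjusted p = 0.00229). Nsdhl, the X-linked dehydrogenase that acts after Msmo1, went from 473, 475 and 455 to 338, 293 and 330, a fall by 0.55 (SE 0.09; limma, adjusted p = 0.00356). In none of these genes did a knockout reach the lowest control. By Xist and Y-linked genes, 2 controls and 1 knockout were female. With embryo sex as a term Nsdhl kept its call (log2 fold change -0.58, adjusted p = 0.00564).

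The other 6 genes of the arm did not pass. Fdft1, squalene synthase, which commits the pathway to sterols, was at 722, 718 and 650 in controls and 618, 732 and 613 in knockouts, and the groups overlapped (log2 fold change -0.09, interval -0.30 to 0.11). Tm7sf2, a C14 sterol reductase, was at 136, 146 and 142 in controls and 140, 186 and 164 in knockouts (0.20, interval -0.10 to 0.50). It was the single gene of the arm with a positive value, and it shares exon sequence on the same strand with Vps51. The 2 genes have 532 identical bases in their transcripts, and Vps51 had a mean of 623.7, so values of Tm7sf2 are uncertain. Lss, which closes the sterol rings, had a change of -0.20, the X-linked isomerase gene Ebp -0.11 and the desaturase gene Sc5d -0.11, and none passed. The value of Sc5d was 0.00 without control replicate 2 and -0.25 without control replicate 3, and that of Lss -0.11 and -0.33. Without knockout replicate 2, Tm7sf2 was at 0.10 and Fdft1 at -0.18. The Fdft1 transcript is 97.4% identical over 1249 bases to Gm6781, at a mean of 51.8, so values of Fdft1 are uncertain. Hsd17b7, the ketoreductase that acts beside Nsdhl, was at 625, 372 and 398 against 272, 365 and 238. Its log2 fold change of -0.65 was as large as those that passed, but control replicate 1 stood far above the other 2 controls (SE 0.20; limma, adjusted p = 0.0527). Without control replicate 1 the value was -0.42. It passed without control replicate 2 (adjusted p = 0.0481) or knockout replicate 2 (0.0391).

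**Figure D3:**
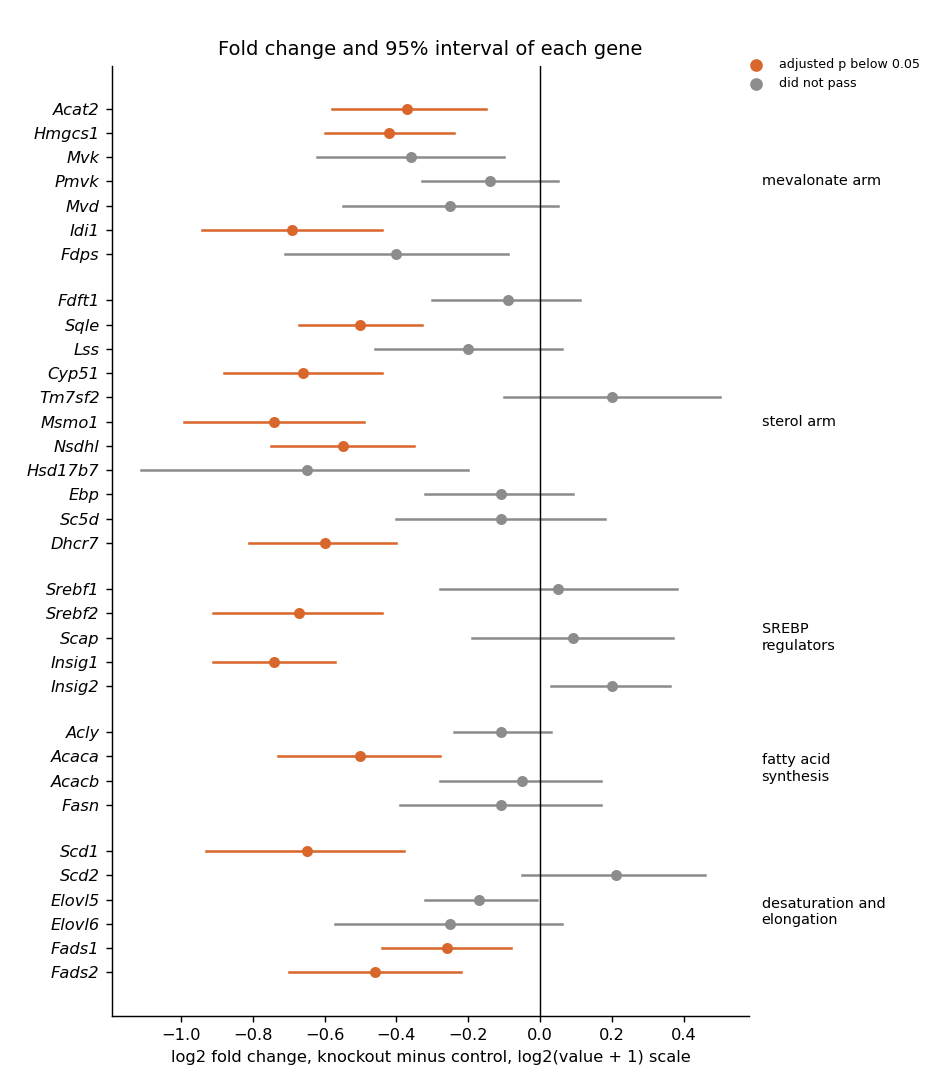
Log2 fold change of each of the 33 genes, knockout minus control on the log2(value + 1) scale, with its 95% interval; orange marks an adjusted p below 0.05 and grey marks genes that did not pass. The 14 orange points run from -0.26 to -0.74, and no gene is orange on the right of 0.

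Of the 4 genes of fatty acid synthesis proper, 1 fell and 0 rose, with a median of -0.11. At an unadjusted p below 0.05 the counts were 1 lower and 0 higher, and limma-voom gave the same. The 1 was Acaca, the cytosolic acetyl-CoA carboxylase, which makes malonyl-CoA for synthesis. It was at 524, 517 and 518 in controls, almost without spread, and at 420, 350 and 334 in knockouts. It fell by 0.50 (limma, adjusted p = 0.00817, SE 0.10). The Acaca transcript is 99.2% identical over 6118 bases to Gm5182, which has no value in these data. The values of Acaca are uncertain to the extent that reads were shared. Acacb, the carboxylase at the mitochondrial membrane, known for limiting fatty acid oxidation, was at 2871, 3567 and 3459 against 3006, 2932 and 3606 (log2 fold change -0.05, interval -0.28 to 0.17). Its value was 0.01 without control replicate 2 and 0.00 without knockout replicate 2.

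Fasn, fatty acid synthase, was at 3419, 4749 and 4483 in controls and 3650, 3579 and 4466 in knockouts. Control replicate 1 was the lowest heart of all 6, the groups overlapped, and the change of -0.11 had an interval from -0.39 to 0.17. Leaving out 1 heart at a time moved it between -0.25 (without control replicate 1) and -0.01 (without control replicate 2). Acly, which makes cytosolic acetyl-CoA from citrate, was at 2310, 2383 and 2218 against 2169, 2057 and 2198. Its knockouts lay just below the controls, but the change was small (-0.11, interval -0.24 to 0.03) and did not pass.

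Among desaturases and elongases 3 of 6 fell and 0 rose, with a median of -0.26. At an unadjusted p below 0.05, 4 were lower and 0 higher, and limma-voom called 2 and 0. Scd1, a stearoyl-CoA desaturase, was at 189, 168 and 174 in controls and at 103, 116 and 118 in knockouts. Its highest knockout was well below its lowest control, and it fell by 0.65 (SE 0.12; limma, adjusted p = 0.00649). Scd2, the desaturase of the embryo and brain, was by far the most abundant gene of the 33, at 16953, 20579 and 14548 in controls and 18473, 20183 and 20881 in knockouts. It had a log2 fold change of 0.21 with an interval from -0.05 to 0.46, and did not pass. That value was 0.34 without control replicate 2 and 0.09 without control replicate 3. The 2 transcripts are 95.5% identical over 623 bases, so the low values of Scd1 are uncertain by any reads of Scd2 assigned to it.

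Fads2, the first desaturase of polyunsaturated fatty acids, went from 370, 433 and 435 to 287, 277 and 335. It fell by 0.46 (SE 0.11; limma, adjusted p = 0.0179), and the call was lost without control replicate 2 (adjusted p = 0.067), control replicate 3 (0.0688) or knockout replicate 2 (0.0801). Fads1, the next desaturase of that route, was at 1333, 1404 and 1475 against 1075, 1176 and 1269. Its fall by 0.26 was the smallest to pass (SE 0.08; limma, adjusted p = 0.0478). It was lost with equal totals (adjusted p = 0.0681), without a filter on low values (0.091), with quantile normalization (0.052), with limma-voom (0.0519), with embryo sex as a term (0.0918), and without control replicate 2 (0.118) or 3 (0.143) or knockout replicate 1 (0.14) or 2 (0.137). Elovl5, an elongase of polyunsaturated chains, had a change of -0.17 and Elovl6, which elongates saturated chains, one of -0.25, and neither passed. Elovl6 was at 394, 321 and 263 in controls and 281, 276 and 253 in knockouts, with the groups overlapping. Its value was -0.11 without control replicate 1 and -0.40 without control replicate 3.

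Per kb of exon, Scd2 had 3177 units of deposited value in controls, followed by Hmgcs1 at 731, Acly and Elovl5 at 436 each, Srebf2 at 386 and Fasn at 385. The lowest were Scd1 at 36.2, Tm7sf2 at 32.1 and Acaca at 30.4. Of the 32 pairs of neighbours in that order, the control hearts of 23 overlapped. The genes whose controls all stood above those of the next were Scd2, Hmgcs1, Insig2, Insig1, Cyp51, Dhcr7, Idi1, Scd1 and Tm7sf2. Exon length was the union of all annotated exons, which lowers the value of genes with many rare exons, such as Acaca at 17.1 kb. Genes that fell came from both ends of the order: Hmgcs1 went to 548 per kb in knockouts and Acaca to 21.6.

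**Figure D4:**
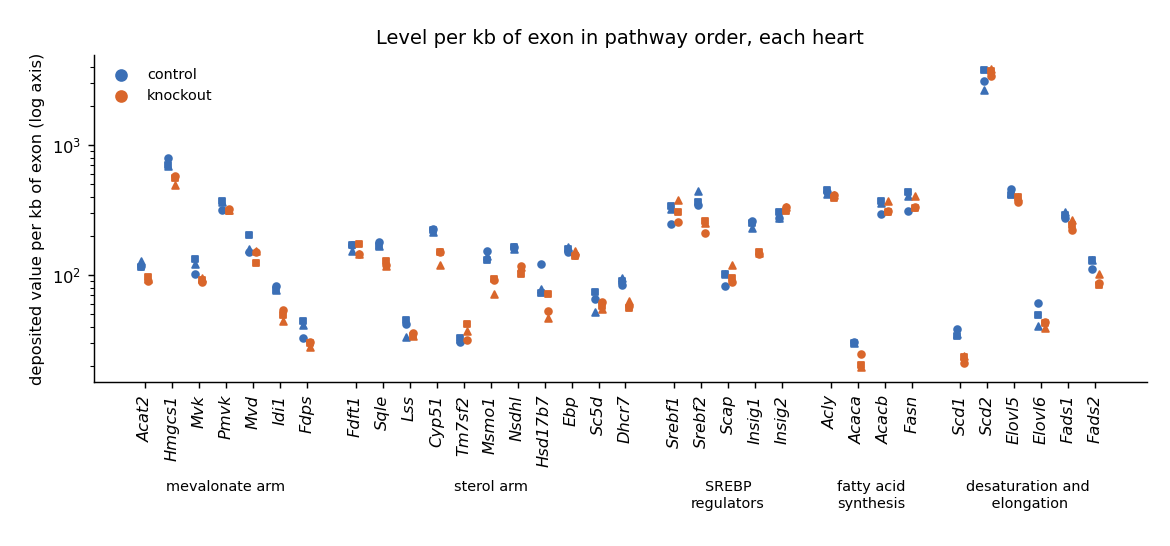
Deposited value per kb of exon (log axis) for each gene in pathway order; blue points are the 3 controls, orange the 3 knockouts, with circle, square and triangle for replicates 1, 2 and 3. Scd2 stands above every other gene in every heart, and Acaca, Tm7sf2 and Scd1 are among the lowest.

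Pairs of genes with related roles were compared within each heart, as the log2 ratio of their values, in 7 pairs. The Insig1 to Insig2 ratio was 0.843, 0.744 and 0.757 in controls and 0.395, 0.431 and 0.399 in knockouts, a log2 difference of -0.94. The Srebf1 to Srebf2 ratio was 0.563, 0.726 and 0.575 in controls and 0.959, 0.924 and 1.19 in knockouts, a log2 difference of 0.72. The log2 difference was -0.86 for Scd1 to Scd2, -0.45 for Acaca to Acacb, -0.32 for Hmgcs1 to Fdft1 and 0.20 for Fads1 to Fads2. Without knockout replicate 3 the Acaca to Acacb difference was -0.29. In these 6 pairs the groups did not overlap, and each had an exact two-sided permutation p = 0.10, the smallest that 3 hearts against 3 can give, or 0.117 adjusted over the 7 pairs. None therefore reached 0.05. No share of separated pairs was computed for other genes. Among single tested genes, every knockout lay below every control in 17.9% and above in 17.5%. The pairs of Insig, Srebf, Scd and acetyl-CoA carboxylase genes, and Hmgcs1 to Fdft1, each set a gene that passed against one that did not. Their separation thus partly repeats the results of the single genes. For Elovl6 to Elovl5 the groups overlapped (log2 difference -0.09, exact permutation p = 0.70), and the sign changed to 0.02 without control replicate 1.

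Over the 14 genes that fell, the median deviation from the control mean was -0.54, -0.57 and -0.57 on the log2 scale in knockout replicates 1, 2 and 3. The test that chose these genes favours genes low in every knockout, so the like medians follow in part from that choice. Single genes varied more, as Msmo1 at -0.62, -0.60 and -0.99. Over the 5 SREBP regulators the medians were -0.22, 0.02 and 0.23. No single knockout was the lowest throughout: replicate 1 was lowest in 5 of the 14, replicate 2 in 3 and replicate 3 in 6. Over the 18 enzymes of the mevalonate and sterol arms together the medians were -0.39, -0.36 and -0.42, and over the 10 fatty acid genes -0.22, -0.22 and -0.13. Of the 18, 8 fell, and of the 10, 4 fell.

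Genes around the pathway, in 6 lists, were read from the same fit. Over the 96 genes of these lists that were tested 11 rose and 10 fell, and without knockout replicate 2 the count was 6 and 8. Of all tested genes 8.61% were called higher and 8.56% lower, so the counts over the lists together were near those shares. Counts in single lists, here and below, rest on few genes and are to be read beside the same shares. In sterol uptake, export and storage 5 of 21 genes rose and 1 fell, with a median of 0.28, opposite in sign to the median of the synthesis genes. Lipa, the lysosomal lipase that frees cholesterol from its esters, rose from 694, 749 and 765 to 1022, 1110 and 1105, by 0.55 (SE 0.07; limma, adjusted p = 0.00148). Soat1, which esterifies cholesterol for storage, rose from 778, 712 and 765 to 979, 1037 and 1045, by 0.44 (SE 0.07; limma, adjusted p = 0.00331). Abca1, the exporter of cholesterol to lipoprotein, rose from 779, 638 and 613 to 1000, 983 and 1117, by 0.62 (SE 0.10; limma, adjusted p = 0.00338). Every knockout exceeded every control for these genes, which were picked for the smallest p in the list. The same held for 17.5% of all tested genes. The other calls, named after their values were seen, were the lysosomal sterol transport genes Npc2, up by 0.40, and Npc1, up by 0.28, and Stard5, a sterol carrier, which fell by 0.54.

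Macrophages are rich in lysosomal and sterol export proteins, and their markers moved the same way. Of 8 macrophage markers 6 rose, and their summed value went from 1273 to 1455 in controls to 1893 to 2814 in knockouts, with no marker at 0. Of 8 endothelial markers 4 rose (summed 18871 to 19571 against 21323 to 23575) and of 9 fibroblast and epicardial markers 2 rose (59002 to 70361 against 73495 to 97114), again with none at 0. Their part in the rises was not tested.

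**Figure D5:**
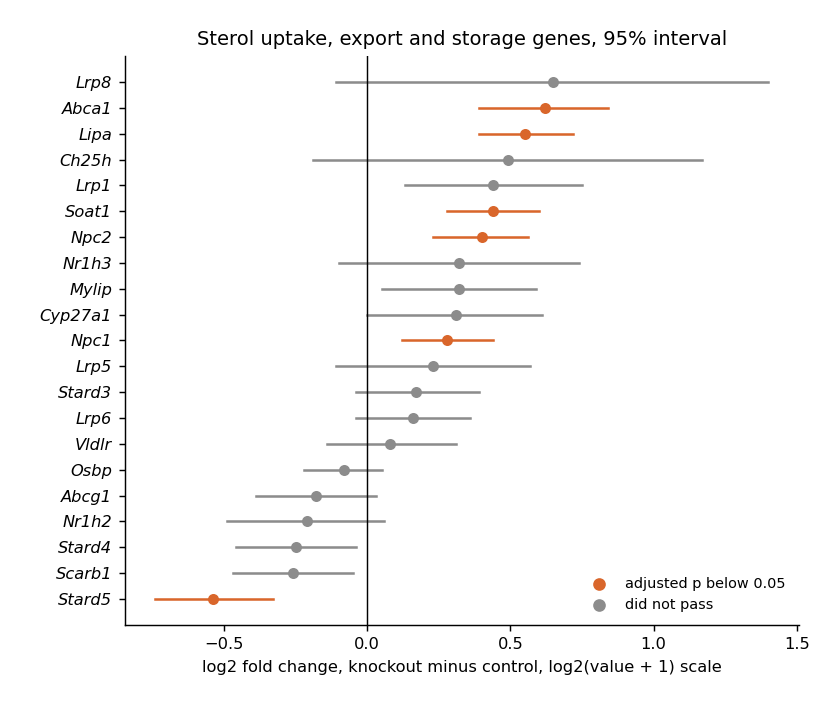
Log2 fold change, knockout minus control on the log2(value + 1) scale, with 95% intervals for 21 genes of sterol uptake, export and storage; orange marks an adjusted p below 0.05. The 5 genes that rose (Abca1, Lipa, Soat1, Npc2 and Npc1) lie between 0.28 and 0.62, and Stard5 is at -0.54.

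Proliferation genes moved with the sterol genes. All 12 of a list that included Mki67 and Top2a fell, with a median of -0.66, and their summed value was 35502 to 36672 in controls and 21253 to 23999 in knockouts, with none at 0. Their part in the lower sterol genes was not tested. Erythroid markers were at a summed 37800 to 65940 in controls and 30192 to 37646 in knockouts, with none at 0, and no single one passed (limma, 5 of 6 lower at an unadjusted p below 0.05, limma-voom 0). Liver and fat are known for lipid synthesis, and their markers were low: 6 hepatocyte markers summed to 20 to 96 in controls and 24 to 224 in knockouts with none at 0 in every heart, and of the adipocyte markers Plin1 and Lep were at 0 in all hearts. Cidea, a lipid droplet protein gene, was the single adipocyte marker that reached the minimum, at 134, 163 and 108 in controls and 311, 380 and 308 in knockouts (log2 fold change 1.31, limma adjusted p = 0.000941). Lung epithelial markers summed to at most 17 in any heart, with Nkx2-1 at 0 in all, and of 5 Schwann and neural crest markers, none at 0 in every heart, 3 were tested and none passed (limma, 0 at an unadjusted p below 0.05, limma-voom 0), with sums of 573 to 668 against 495 to 669.

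Of 14 genes of SREBP processing and its partner factors 2 rose and 1 fell, with a median of 0.03. Nfyc, a subunit of NF-Y, fell by 0.36 (SE 0.06; limma, adjusted p = 0.00498). Erlin2, a partner of sterol-regulated degradation in the endoplasmic reticulum, rose by 0.26 (SE 0.06). In the branch that makes isoprenoid side products, 1 of 14 fell and 0 rose, with a median of -0.08. At an unadjusted p below 0.05, 2 were lower and 1 higher, and limma-voom called 1 and 0. The 1 was Pdss1, which makes the tail of coenzyme Q, from 721, 629 and 657 to 525, 432 and 417 (log2 fold change -0.55, SE 0.10; limma, adjusted p = 0.00648).

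Of 12 genes that supply acetyl-CoA and NADPH or act with the fatty acid enzymes, 3 fell and 0 rose, the same by limma-voom and at an unadjusted p below 0.05, with a median of 0.02. Mlxipl, which encodes the carbohydrate response factor ChREBP, a known activator of lipid synthesis genes, had the largest change among the genes of these lists that passed. It was at 171, 122 and 174 in controls and at 65, 58 and 60 in knockouts, and fell by 1.32 (SE 0.17; limma, adjusted p = 0.0012). Acss1, a mitochondrial acetyl-CoA synthetase, fell by 0.73 (SE 0.14) and Mid1ip1, an activator of acetyl-CoA carboxylase, by 0.51 (SE 0.09).

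Of 17 other elongases, desaturases and elongation partners, 14 were tested, 3 fell and 1 rose, with a median of -0.18. Scd4, a heart desaturase, went from 181, 203 and 186 to 137, 111 and 80, a fall by 0.82 (SE 0.18; limma, adjusted p = 0.0133). The dehydratase genes of the elongation cycle diverged: Hacd1, the muscle form, fell by 0.38 (SE 0.08), and Hacd3 rose by 0.37 (SE 0.07). The third fall, named after its value was seen, was Fads3, by 0.26. Of 23 genes of glycerolipid and phospholipid synthesis, 21 were matched, 3 rose and 1 fell, with a median of 0.02. Ptdss1, which makes phosphatidylserine, rose by 0.33 (SE 0.07), Agpat3, an acyltransferase, by 0.24 (SE 0.06) and Lpin2, a phosphatidate phosphatase, by 0.33 (SE 0.09). The 1 fall, named after its value was seen, was Pcyt2 of phosphatidylethanolamine synthesis, by 0.29. In this list limma-voom called 2 higher and 0 lower, so the fall of Pcyt2 was lost there.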

How the data were processed

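Poly(A) RNA of 6 hearts was sequenced, and groups and replicate numbers came from the sample titles. The submitters' processing notes name build mm10, featureCounts 1.5.0, STAR 2.4.2a, DESeq, DESeq2 and Trimmomatic. Their roles and any use of strand in counting are not stated. The deposited values are a score: scaled reads, divided for each heart by one factor and rounded by the authors, as the spacing of low values shows, since the file headers give no unit. That spacing gave the depth estimate, and low values carry counting error that the scale hides. Because exact reads cannot be recovered, a test for normalized values was used.

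The test was limma 3.58.1 in R 4.3.3 with a variance trend and group as the only term, run on 15556 genes (mean 10 or more) as log2(value + 1). A fold change on that scale understates low genes. P-values were adjusted (Benjamini-Hochberg) over all tested genes, threshold 0.05. Each sample is labelled as a heart of its own, but separate litters are not stated. Members and lists were chosen with earlier results of these data known. Values in every heart are given for genes that passed and for the highest and lowest others of each role, and for up to 3 genes with the smallest p in each other list. Gpat3 and Gpat4 were not matched by symbol. The values of 1 gene of the SREBP processing list are not reported here. Of 45706 identifiers, 45143 were in GENCODE M21 (mm10), which gave coordinates and exon lengths. Similar transcripts (at least 95% identity over 300 bases) were found with BLAST+ 2.17.0. The script was tested on simulated data. Alternatives were a stricter filter or none, pseudocounts of 10 and 0.1, limma-voom run with estimated reads, equal totals, quantile normalization, a replicate block, embryo sex, a fold change of 1.2 and leaving out each heart.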

Additional observations from a re-analysis of the deposited data

How the results depend on the processing

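Of the 14 genes that fell, 3 (Cyp51, Msmo1 and Insig1) fell in all 16 alternatives, 8 in all but the test against a fold change of 1.2, and Acat2, Fads1 and Fads2 lost their calls also elsewhere. Against a fold change of 1.2, 3 of the 33 genes were called lower, and 13 at an unadjusted p. By adjusted p the same test called 211 of all genes higher and 207 lower, or 1.33% lower. The count of all genes at an unadjusted p was not computed, so the 13 has no such share beside it. Of the genes around the pathway 0 were called higher (3 at an unadjusted p) and 1 lower (6 at an unadjusted p). Without a filter on low values 846 of all genes were higher. Without each heart in turn the count of all genes was 614 to 1237 higher and 691 to 1225 lower, that of the 33 genes 11 to 16 lower, and that of the genes around the pathway 6 to 13 higher and 7 to 12 lower, with the 6 reached without knockout replicate 2. Signs turned near 0 for 5 values. Over the 6 fits that each left out 1 heart, Sc5d ran from -0.25 to 0.00, Srebf1 from -0.09 to 0.18, Scap from -0.04 to 0.18, Acacb from -0.15 to 0.01 and the Elovl6 to Elovl5 ratio from -0.22 to 0.02. The cause was not tested.

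The replicate numbers are not stated to pair the hearts. Same-numbered hearts' deviations from their group means correlated at -0.04, -0.37 and 0.05, and no heart correlated best with its own number. With a replicate block 16 of the 33 genes were lower, with Mvk and Hsd17b7 added, and 1787 of all genes were higher and 1743 lower. The shallowest heart, control replicate 3, has the coarsest low values. With 3 hearts a group, a gene whose interval spans 0 may still differ within that interval. DESeq2 was not run, since the values are not counts.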
